A study of Mus musculus with 16 samples.

Results

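The collagen genes of the mouse were described in brain RNA of 16 mice. All genes of the deposited table whose symbol is Col, a collagen type number, the letter a and a chain number were taken, which gave 44 of 55487 genes. They comprise 11 fibrillar chains, 6 chains of type IV collagen, the collagen of basement membranes, and 27 chains of other kinds. Collagen chains wind into triple helices that are secreted into the extracellular matrix. Fibrillar collagens build the fibrils of connective tissue, which in the brain lie mostly in the meninges and around larger vessels, whereas type IV collagen forms a network in the basement membrane of every brain vessel, made by endothelial cells and pericytes. Other members coat fibrils, anchor basement membranes or span the cell membrane, and some of these are made by neurons and glia.

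Poly(A) RNA was sequenced from bulk brain tissue of female mice on a C57BL/6J background, with 4 mice in each of 4 groups. In the study, the cerebrum of mice that had not been perfused was frozen in quadrants. Whether the RNA came from these is not stated. CETPtg mice carry the human CETP gene, under its own promoter, for a plasma protein that exchanges lipids between lipoproteins and that mice lack. APPtg/CETPtg mice carry in addition a human APP transgene with the Swedish and Indiana mutations under the Thy1 promoter, which is active in neurons, and both transgenes are heterozygous. From the age of 11 weeks, mice of both genotypes ate a diet with 1% cholesterol and received daily intraperitoneal injections of evacetrapib, a CETP inhibitor, at 30 mg per kg, or of its vehicle of Kolliphor EL and glucose, for 11 weeks. Every group carries the CETP transgene and ate the cholesterol diet, so effects of either are outside these comparisons. CETPtg mice are S1 to S4 with vehicle and A to D with evacetrapib, and APPtg/CETPtg mice are S5 to S8 with vehicle and E to H with evacetrapib.

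Counts per mouse added up to 28626139 or more in CETPtg mice and to between 21391335 and 27398792 in APPtg/CETPtg mice other than S8, which had 55453789. Of these, between 12576 and 31565 counts fell on collagens. Libraries of the genotypes lie in separate columns of the index plate and those of the treatments in separate rows, so neither position can be told apart from its factor. CPM below are counts scaled to a common library total with TMM factors. TPM are counts divided by the bases in all annotated exons of a gene, then scaled to a common total.

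Markers fit the brain label in every mouse. Neuronal markers summed to between 7104 and 8502 CPM, astrocyte markers to between 2689 and 3724 CPM and oligodendrocyte markers to between 3350 and 5117 CPM. Other tissue was present in some samples. Choroid plexus markers summed to 469 CPM in S8, 170.5 CPM in S3, 126 CPM in B and 122 CPM in S7, against at most 41.6 CPM in the other 12 mice. Pituitary markers summed to 854 CPM in E, where prolactin (Prl) had 515 CPM, and to at most 20.6 CPM elsewhere. Olfactory bulb markers, led by Cdhr1, summed to 60.6, 134.6, 124 and 139 CPM in S1 to S4, 48.6, 53.6, 34.1 and 146 CPM in A to D, 14.6, 162, 57.9 and 20.2 CPM in S5 to S8 and 160.8, 30.0, 173.5 and 90.3 CPM in E to H, and blood markers to between 69.9 CPM in F and 289 CPM in A. In bulk tissue, fewer cells of a type and less RNA per cell cannot be told apart, which holds for every collagen below.

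Col6a1, a chain of the beaded filaments of type VI collagen, had the highest level of the family, with 99.3 ± 15.2 TPM (SD, n = 16). It made up 31.3% of the summed collagen TPM. The type IV chains Col4a2 and Col4a1 followed with 31.2 ± 4.82 and 23.2 ± 3.45 TPM (SD, n = 16 each), and the ranges of this pair, 25.3 to 40.8 and 18.9 to 30.1 TPM, overlapped with each other but not with that of Col6a1. After them came Col25a1, a neuronal transmembrane collagen known from amyloid plaques, with 14.8 ± 1.87 TPM (SD, n = 16). Col11a2, Col9a3, Col6a2 and Col16a1 had mean levels between 10.4 and 13.8 TPM, and the ranges of neighbors in this order overlapped.

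**Figure D1:**
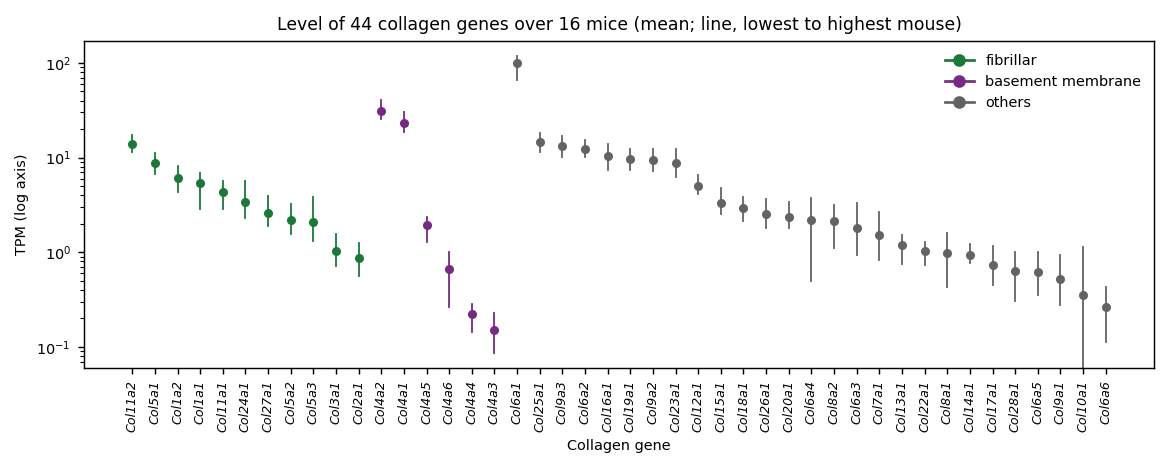
Level of each of the 44 collagens in TPM on a log axis, with the mean over 16 mice as a point and a line from the lowest to the highest mouse, grouped into fibrillar, basement membrane and other chains. Col6a1 stands above all others, and the line of Col10a1 runs off the axis because its lowest mouse had 0 counts.

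By class, fibrillar chains made up 15.9%, type IV chains 18.1% and the others 66.0% of summed collagen TPM. Of the 44 genes, 32 had a mean above 1 TPM and 8 above 10 TPM. Type VI chains were far apart in level. Col6a2, which assembles with Col6a1, had 12.4 ± 1.496 TPM and Col6a3, the longest chain of that filament, 1.81 ± 0.618 TPM (SD, n = 16 each). The main chains of type I collagen were close in TPM, with 5.35 ± 1.01 TPM for Col1a1 and 6.05 ± 1.051 TPM for Col1a2 (SD, n = 16 each). This rests on the exon bases used, 6563 for Col1a1 and 12426 for Col1a2. Their mean CPM, which do not use length, were 9.13 and 19.5. Col3a1, the type III chain of vessel walls, was at 0.717 to 1.55 TPM, and the rarer type IV chains Col4a3, Col4a4, Col4a5 and Col4a6 lay between 0.0865 and 2.38 TPM.

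The median SD of log2 CPM within groups was 0.27 over the collagens and 0.14 over all genes tested. Counting noise, which is larger at low counts, is part of this SD, and the collagens were not matched to all genes for level. Its part in this difference was not tested. Col12a1, Col14a1, Col4a2 and Col11a2 had the smallest SDs, of 0.13 or 0.14, although Col14a1 had only 34 to 98 counts per mouse. Col10a1 varied most, with an SD of 0.87, and had 0 counts in mouse C, which allows up to 0.0797 CPM (3 counts, counting error only) and 0.946 CPM in S6. After it came Col6a4, whose highest CPM was 7.86 times its lowest. Mouse G had the highest CPM of all mice for 12 collagens and mouse H for 7, both APPtg/CETPtg mice with evacetrapib, while the vehicle-treated APPtg/CETPtg mouse S6 was highest for 6 and lowest for another 6.

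Summed over the fibrillar chains, the level was 49.9 ± 4.52 TPM with vehicle and 47.2 ± 5.13 TPM with evacetrapib in CETPtg mice (SD, n = 4 each). In APPtg/CETPtg mice it was 49.0 ± 2.52 TPM with vehicle and 56.0 ± 5.87 TPM with evacetrapib (SD, n = 4 each), with overlapping groups. Type IV chains summed to 50.5 ± 2.51 and 53.0 ± 2.85 TPM in CETPtg mice and to 59.4 ± 9.24 and 66.5 ± 5.77 TPM in APPtg/CETPtg mice, with vehicle and evacetrapib in that order (SD, n = 4 each). These sums rest mainly on Col4a1 and Col4a2, and their order was the same as that of the group means of both genes. The other chains summed to 208 ± 18.8 and 193 ± 22.3 TPM in CETPtg mice and to 211 ± 14.7 and 226 ± 16.1 TPM in APPtg/CETPtg mice (SD, n = 4 each).

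All 44 collagens had at least 10 counts in at least 4 mice and were tested with edgeR's quasi-likelihood test among 18609 genes. A gene was called at a Benjamini-Hochberg adjusted p of at most 0.05 over all genes and a change of 5% or more. Between evacetrapib and vehicle over both genotypes, 0 of 44 collagens were called, where 0.0107% of all genes were, and DESeq2 called 0 as well, where it called 0.317% of all genes. At an unadjusted p below 0.05, 4 collagens were higher with evacetrapib, where 4.12% of all genes tested were higher, and 0 were lower, where 3.79% were. The 4 make up 9.09% of the family and are Col12a1, Col3a1, Col1a1 and Col4a1. Of the 44, 27 had a positive log2 fold change, or 61.4%, where 49.2% of all genes did.

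Within CETPtg mice, edgeR called 0 collagens, where 0% of all genes were called, and DESeq2 called 0, where it also called 0%. At an unadjusted p below 0.05, 2 collagens were lower with evacetrapib (2.74% of all genes tested were) and 0 were higher (3.06% were). Within APPtg/CETPtg mice, edgeR also called 0 collagens, where 0.043% of all genes were called, while DESeq2 called 1, Col12a1, where it called 0.392% of all genes. At an unadjusted p below 0.05, 7 collagens, 15.9% of the family, were higher with evacetrapib in APPtg/CETPtg mice, where 4.7% of all genes were, and 0 were lower, where 4.32% were.

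In APPtg/CETPtg mice at an unadjusted p below 0.05, 9 of 12 endothelial, 6 of 10 pericyte, 4 of 7 smooth muscle, 4 of 7 astrocyte and 3 of 13 fibroblast and meningeal markers were higher with evacetrapib, where 4.7% of all genes were, and 5 of 9 choroid plexus markers were lower, where 4.32% of all genes were. Of these lists edgeR called 0 markers, and DESeq2 called 2 each of the endothelial, pericyte and smooth muscle markers, where it called 0.392% of all genes. The endothelial and smooth muscle lists hold genes, named further below, that the study had reported as changed in these mice. Their counts are not independent of that result. In CETPtg mice, where 0 collagens were higher at that p, 7 of 12 endothelial, 3 of 7 smooth muscle and 1 of 10 pericyte markers were higher, where 3.06% of all genes were, 0 of the astrocyte, fibroblast and choroid plexus markers passed it in either direction, and both tools called 0. Astrocyte markers, led by Slc1a2, summed to 2689, 3043, 3013 and 3191 CPM in S5 to S8 and to 3066, 3381, 3289 and 3229.6 CPM in E to H. Choroid plexus markers, led by Ttr, summed to 18.3, 20.4, 122 and 469 CPM in S5 to S8 and to 19.5, 14.6, 24.8 and 30.6 CPM in E to H, with a median log2 fold change of -1.23. Over 5 olfactory bulb markers the median log2 fold change with evacetrapib was 0.93 in APPtg/CETPtg mice, -0.66 in CETPtg mice and 1.61 for the difference between these effects, with 0 called by either tool and 0 at an unadjusted p below 0.05 in each. No marker of these lists was at 0 in all mice. The part of these cells and tissues in the collagen values was not tested.

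The difference between the genotypes in the evacetrapib effect was tested itself. For it, edgeR called 0 collagens, where 0% of all genes were called, and DESeq2 called 0, where it called 0.0108% of all genes. At an unadjusted p below 0.05, 8 collagens had a higher effect in APPtg/CETPtg than in CETPtg mice, where 3.65% of all genes did, and 0 had a lower one, where 3.18% did. The 8 are Col7a1, Col13a1, Col16a1, Col23a1, Col24a1, Col1a2, Col11a1 and Col12a1, all with an adjusted p of 0.703. They come from several classes, and effects within the genotypes are therefore given side by side below without being called different. The number of collagens with an unadjusted p below 0.05 ran from 5 to 14 in fits that left out 1 mouse. It was lower still without the mice rich in choroid plexus RNA. In the same difference, choroid plexus markers had a median log2 fold change of -1.56, with 2 of 9 lower and 0 higher at that p. Their part in the collagen values was not tested.

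Between APPtg/CETPtg and CETPtg mice over both treatments, edgeR called 3 collagens, Col4a2, Col4a1 and Col16a1, where 17.7% of all genes were called. All 3 were higher in APPtg/CETPtg mice, where 9.35% of all genes were called higher, so the share of collagens, 6.82%, did not exceed that of all genes. At an unadjusted p below 0.05, 8 collagens were higher, where 15.8% of all genes were, and 1, Col25a1, was lower, where 14.7% were. DESeq2 called the same 3 collagens, where it called 20% of all genes.

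**Figure D2:**
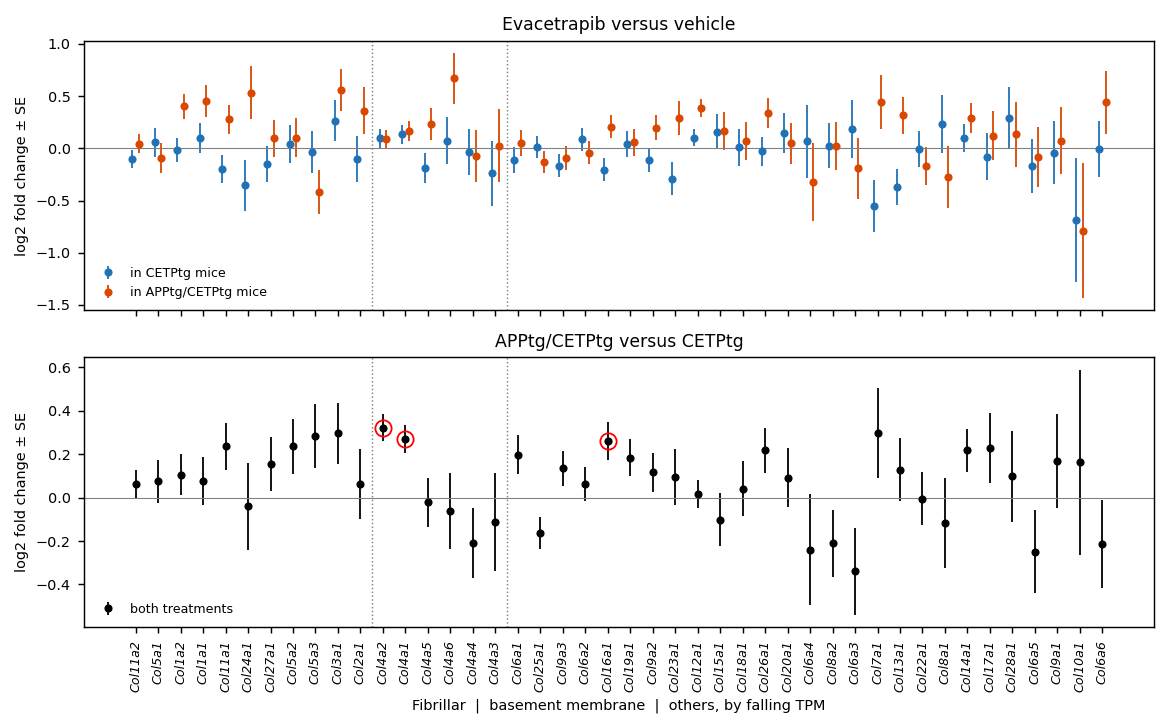
Log2 fold change ± standard error of the 44 collagens from edgeR, between evacetrapib and vehicle within each genotype (upper panel, n = 4 mice per group) and between APPtg/CETPtg and CETPtg mice over both treatments (lower panel, n = 8 per genotype). Red circles mark the 3 called genes, Col4a2, Col4a1 and Col16a1, and dotted lines separate the classes.

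Fibrillar collagens. Col1a1 encodes the chain present in most copies in type I collagen, the main collagen of fibrils. It had 8.44, 7.83, 9.57 and 8.32 CPM in CETPtg mice S1 to S4 with vehicle and 9.29, 8.75, 8.58 and 9.96 CPM in A to D with evacetrapib. In APPtg/CETPtg mice it had 4.94, 11.0, 7.82 and 8.01 CPM in S5 to S8 with vehicle and 10.4, 9.99, 11.3 and 11.9 CPM in E to H with evacetrapib. The treatment groups overlapped in both genotypes, in APPtg/CETPtg mice only through S6, and S5 was the lowest of all mice. For Col1a1 the log2 fold change with evacetrapib was 0.27 over both genotypes (SE 0.11, edgeR adjusted p = 0.559), with 0.10 for CETPtg and 0.45 for APPtg/CETPtg mice.

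Col1a2, the partner chain of Col1a1, had 19.8, 15.5, 22.8 and 17.0 CPM in S1 to S4 and 16.9, 15.6, 21.5 and 20.6 CPM in A to D. With vehicle, APPtg/CETPtg mice S5 to S8 had 14.3, 18.4, 18.6 and 18.6 CPM, and with evacetrapib E to H had 25.7, 22.6, 22.0 and 22.2 CPM. The 4 evacetrapib-treated APPtg/CETPtg mice were thus above the 4 vehicle-treated ones, whereas the CETPtg groups overlapped throughout. Evacetrapib gave it a log2 fold change of 0.40 in APPtg/CETPtg mice (SE 0.12, edgeR adjusted p = 0.299) and of -0.01 in CETPtg mice. The difference between these effects was 0.42 (SE 0.17, adjusted p = 0.703), so it did not pass.

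Col3a1 encodes type III collagen, which accompanies type I in vessel walls. It had 1.89, 1.86, 2.79 and 1.97 CPM in S1 to S4 and 2.82, 2.25, 2.31 and 2.87 CPM in A to D. In S5 to S8 it had 1.86, 3.70, 1.82 and 2.17 CPM and in E to H 3.13, 3.57, 3.87 and 3.34 CPM. Here too S6 was the only vehicle-treated APPtg/CETPtg mouse within the range of the evacetrapib group, and S3 was high among vehicle-treated CETPtg mice. For Col3a1 the log2 fold change with evacetrapib was 0.41 over both genotypes (SE 0.14, edgeR adjusted p = 0.454), with 0.27 for CETPtg and 0.56 for APPtg/CETPtg mice. Of the 11 fibrillar chains this was the largest change over both genotypes.

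The fibrillar chains with the highest TPM did not share this pattern. Col11a2, a chain of type XI collagen that is best known from cartilage, had 22.8, 28.1, 26.0 and 23.0 CPM in S1 to S4, 21.2, 23.0, 25.5 and 23.5 CPM in A to D, 28.4, 22.2, 22.9 and 25.7 CPM in S5 to S8 and 23.8, 23.8, 30.0 and 24.9 CPM in E to H. Col5a1, a chain that sets the width of type I fibrils, had 15.3, 21.7, 18.5 and 19.0 CPM in S1 to S4, 17.1, 17.8, 25.2 and 17.4 CPM in A to D, 23.7, 15.1, 18.8 and 24.5 CPM in S5 to S8 and 20.7, 18.1, 20.0 and 18.7 CPM in E to H. Groups overlapped for both genes, and the sign of their log2 fold changes with evacetrapib over both genotypes, -0.03 and -0.01, turned in some fits that left out 1 mouse.

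Over the 11 fibrillar chains, the median log2 fold change with evacetrapib was 0.07 over both genotypes, -0.03 for CETPtg and 0.28 for APPtg/CETPtg mice, beside 0.00 over all genes tested in each. In fits that left out 1 mouse these medians ran from 0.01 to 0.12, from -0.11 to 0.06, where the sign turned, and from 0.19 to 0.37. The 13 fibroblast and meningeal markers described below had medians of 0.10, -0.05 and 0.29 in the same order, and their part in the collagen values was not tested. In APPtg/CETPtg mice 9 of the 11 were higher with evacetrapib, as were 49.6% of all genes, from Col24a1 at 0.53 and Col3a1 at 0.56 down to -0.42 for Col5a3. Between the genotypes the median was 0.11, beside 0.00 over all genes, and 10 of the 11 were higher in APPtg/CETPtg mice, as were 51.2% of all genes, with 0 called by edgeR or DESeq2, beside 17.7% and 20% of all genes, and 2, Col11a1 and Col3a1, higher at an unadjusted p below 0.05, beside 15.8% of all genes.

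Basement membrane collagens. Col4a1 and Col4a2 form the common type IV network. Col4a1 (ENSMUSG00000031502) had 35.8, 39.9, 37.1 and 42.6 CPM in CETPtg mice S1 to S4 and 43.9, 41.3, 39.6 and 45.8 CPM in A to D. It had 44.3, 56.6, 37.8 and 46.8 CPM in APPtg/CETPtg mice S5 to S8 and 51.2, 47.1, 57.1 and 53.0 CPM in E to H. All evacetrapib-treated APPtg/CETPtg mice were above all CETPtg mice, while S5 and S7 lay within the CETPtg range. Its log2 fold change between APPtg/CETPtg and CETPtg mice was 0.27 (SE 0.064, edgeR adjusted p = 0.00631). With evacetrapib it was 0.15 over both genotypes (SE 0.064, adjusted p = 0.585), 0.14 for CETPtg and 0.17 for APPtg/CETPtg mice.

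Col4a2 (ENSMUSG00000031503) had 42.6, 49.5, 44.5 and 47.9 CPM in S1 to S4, 47.6, 51.2, 47.7 and 50.7 CPM in A to D, 54.2, 71.5, 48.6 and 56.9 CPM in S5 to S8 and 59.6, 55.1, 67.7 and 63.6 CPM in E to H. Of the APPtg/CETPtg mice, S7 was the only one within the range of CETPtg mice, and S6 was the highest of all. Its log2 fold change between APPtg/CETPtg and CETPtg mice was 0.32 (SE 0.062, edgeR adjusted p = 0.00147), and with evacetrapib it was 0.09 over both genotypes (adjusted p = 0.756). Both genes were called between the genotypes in each of the 16 fits that left out 1 mouse.

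The other type IV chains were not called, and no test set them against this pair. Counts were low for Col4a3 (5 to 28 per mouse), Col4a4 (9 to 43) and Col4a6 (15 to 77). Col4a3 and Col4a4, which belong to the networks of kidney and ear, and Col4a5 and Col4a6 had log2 fold changes between -0.21 and -0.02 from CETPtg to APPtg/CETPtg mice, and none of the 4 passed. The median of all 6 type IV chains was therefore -0.04, beside 0.00 over all genes, with -0.09 to 0.00 in the fits that left out 1 mouse, and 2 of the 6 were higher. Col4a6 had the highest log2 fold change of the family with evacetrapib in APPtg/CETPtg mice, 0.67 (SE 0.24, edgeR adjusted p = 0.407). It rested on a low level, with 1.04, 1.44, 0.546 and 1.13 CPM in S5 to S8 and 1.74, 1.502, 1.29 and 2.09 CPM in E to H, where G lay below S6. The median of the type IV chains with evacetrapib was 0.05 over both genotypes, 0.02 for CETPtg and 0.13 for APPtg/CETPtg mice, beside 0.00 over all genes in each. When 1 mouse was left out, these values ran from 0.02 to 0.09, from -0.02 to 0.04 and from 0.09 to 0.24.

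Collagens on the surface of fibrils. Col12a1 (ENSMUSG00000032332, chr9:79598991-79718831) encodes type XII collagen, a chain with an interrupted triple helix that binds type I fibrils. It had the smallest p of the family with evacetrapib over both genotypes and in APPtg/CETPtg mice. Its CPM were 19.8, 19.6, 19.3 and 17.6 in S1 to S4, 21.2, 19.2, 19.9 and 21.6 in A to D, 17.5, 18.2, 16.1 and 18.3 in S5 to S8 and 25.4, 23.0, 24.6 and 18.4 in E to H. The APPtg/CETPtg groups did not overlap, although H was only just above S8. The log2 fold change of Col12a1 was 0.24 over both genotypes (SE 0.065, edgeR adjusted p = 0.283), 0.10 for CETPtg mice and 0.39 for APPtg/CETPtg mice (SE 0.083, edgeR adjusted p = 0.179 in the latter). In APPtg/CETPtg mice DESeq2 called it with an adjusted p of 0.0114, and edgeR called it with an adjusted p of 0.0116 without mouse H. Over all settings and left-out mice this adjusted p lay between 0.0114 and 0.521.

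Col16a1 (ENSMUSG00000040690, chr4:130047840-130099283), a related chain of the matrix around cells, had 16.3, 20.1, 18.3 and 16.6 CPM in S1 to S4, 13.4, 16.2, 16.6 and 15.9 CPM in A to D, 19.7, 15.1, 17.4 and 21.6 CPM in S5 to S8 and 18.5, 20.3, 23.9 and 23.2 CPM in E to H. Evacetrapib-treated mice of the genotypes did not overlap, and vehicle-treated mice did. Its log2 fold change between APPtg/CETPtg and CETPtg mice was 0.26 (SE 0.088, edgeR adjusted p = 0.0451), and the call was lost in 12 of the 16 fits that left out 1 mouse (log2 fold change 0.21 to 0.31), without the 4 mice rich in choroid plexus RNA (0.28, adjusted p = 0.103) and with a term for the replicate numbers (0.26, adjusted p = 0.0556). With evacetrapib it was -0.20 for CETPtg and 0.21 for APPtg/CETPtg mice, a difference of 0.41 (SE 0.15, adjusted p = 0.703).

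Type VI and short chain collagens. Col6a1 had 93.7, 129, 111 and 103 CPM in S1 to S4, 77.7, 92.0, 118 and 117 CPM in A to D, 138, 123, 96.6 and 116 CPM in S5 to S8 and 129.7, 118, 133 and 110.3 CPM in E to H. Mouse A was the lowest, and the 4 groups overlapped. The log2 fold change of Col6a1 was 0.20 between APPtg/CETPtg and CETPtg mice (SE 0.088, edgeR adjusted p = 0.132) and -0.03 with evacetrapib over both genotypes. Col6a3, Col6a4, Col6a5 and Col6a6 had negative log2 fold changes between the genotypes, from -0.34 for Col6a3 to -0.21 for Col6a6, and none passed.

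Col8a1 and Col8a2, chains of a network collagen known from the cornea and from vessel walls, were highest in S8, S3 and B and lowest in S6 and G. Col8a1 had 3.29 CPM in S8, 2.79 CPM in S3 and 2.52 CPM in B, where the choroid plexus gene Ttr had 427, 138 and 99.7 CPM, and 0.901 CPM in S6 and 1.11 CPM in G, where Ttr had 2.704 and 2.35 CPM. The order of the mice differed otherwise, since S7, with 97.3 CPM of Ttr, had 2.47 CPM of Col8a2, below S1 at 2.91 CPM, where Ttr was 1.081 CPM, and Ttr was lower than in S6 and G in 7 other mice. The part of choroid plexus tissue in the level of these chains was not tested. Col10a1, a chain of growth plate cartilage, had the lowest log2 fold change of the family with evacetrapib, -0.73 (SE 0.43, edgeR adjusted p = 0.705), at 0.946 CPM or less in every mouse.

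Transmembrane and anchoring collagens. Col25a1 (ENSMUSG00000058897, chr3:130131501-130599877) had 60.3, 53.2, 54.6 and 41.0 CPM in S1 to S4, 56.1, 56.7, 48.9 and 49.8 CPM in A to D, 49.9, 46.5, 55.3 and 45.2 CPM in S5 to S8 and 37.4, 43.6, 45.8 and 52.8 CPM in E to H. All groups overlapped, with E the lowest of the mice. The log2 fold change of Col25a1 was -0.16 between APPtg/CETPtg and CETPtg mice (SE 0.075, edgeR adjusted p = 0.146), and without S4, the lowest CETPtg mouse, it was -0.22 and passed. With evacetrapib it was -0.06 over both genotypes, and between -0.10 and -0.01 in the fits that left out 1 mouse.

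Col7a1, the anchoring fibril collagen of skin, had the smallest p of the family in CETPtg mice and in the difference between genotypes. It had 2.97, 5.38, 4.15 and 4.62 CPM in S1 to S4, 2.54, 2.22, 2.47 and 4.48 CPM in A to D, 4.72, 4.73, 2.91 and 2.87 CPM in S5 to S8 and 5.74, 3.49, 6.96 and 4.18 CPM in E to H. The groups overlapped in both genotypes, through D in CETPtg mice. Evacetrapib gave Col7a1 a log2 fold change of -0.55 in CETPtg mice (SE 0.25, edgeR adjusted p = 0.837) and of 0.45 in APPtg/CETPtg mice, a difference of 1.00 (SE 0.36, adjusted p = 0.703). Over the 27 chains outside the fibrillar and type IV classes, the median with evacetrapib was 0.01 over both genotypes, -0.01 for CETPtg and 0.07 for APPtg/CETPtg mice, and between the genotypes it was 0.10, beside 0.00 over all genes in each. When 1 mouse was left out, these medians ran from -0.02 to 0.04, from -0.07 to 0.04, from 0.04 to 0.13 and from 0.05 to 0.14, in that order.

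**Figure D3:**
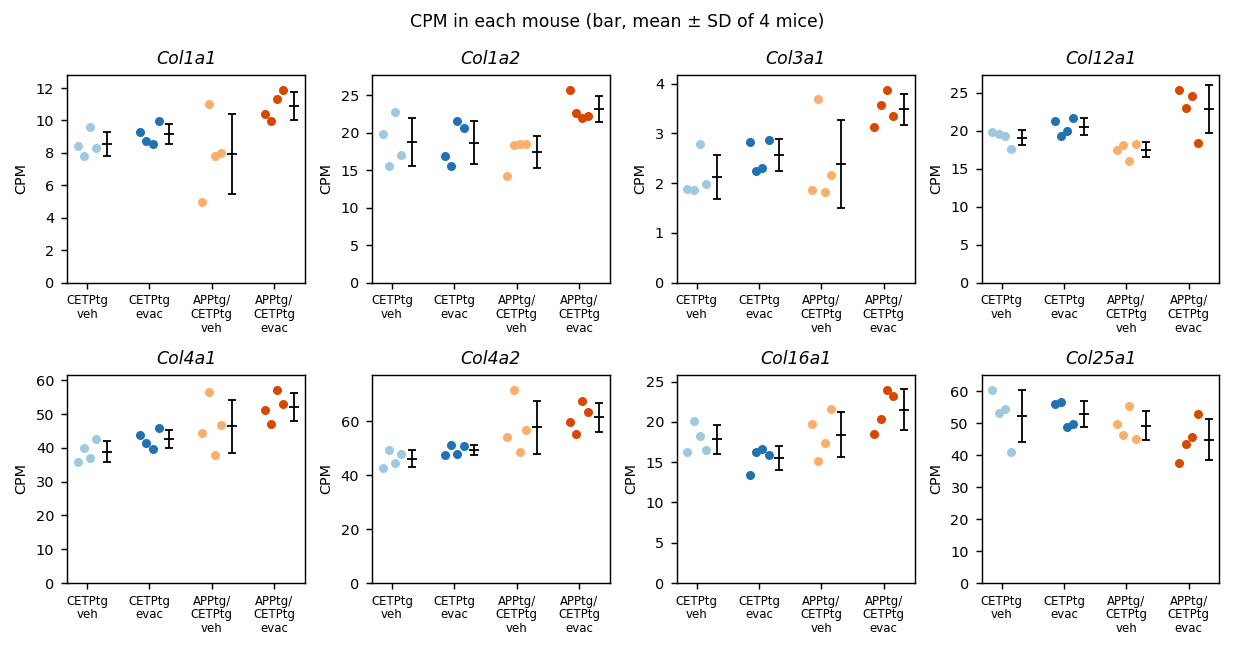
CPM of 8 collagens in each of the 16 mice, with vehicle (veh) and evacetrapib (evac) groups of each genotype on the horizontal axis and the mean ± SD of 4 mice as a bar. All evacetrapib-treated APPtg/CETPtg mice lie above their vehicle group for Col1a2 and Col12a1, and above all CETPtg mice for Col4a1 and Col4a2.

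Partner chains were compared across the 16 mice on log2 CPM in 5 pairs, with two-sided permutation tests and Benjamini-Hochberg adjustment over the pairs. Col4a1 and Col4a2 had the highest Pearson's r over the 16 mice, 0.951 (permutation p = 1e-05, the smallest that 100000 resamples give, adjusted p = 1.67e-05) with Spearman's rho = 0.912 (permutation p = 1e-05, adjusted p = 2.5e-05). Without the mice farthest from the median of Col4a1, G and S6, r was 0.918, and it was 0.781 within CETPtg and 0.968 within APPtg/CETPtg mice. Col8a1 and Col8a2 gave r = 0.944 (permutation p = 1e-05, adjusted p = 1.67e-05) and rho = 0.847 (permutation p = 7e-05, adjusted p = 0.000117), with r = 0.863 without S6 and G, 0.912 within CETPtg and 0.961 within APPtg/CETPtg mice.

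For Col1a1 and Col3a1, r was 0.809 (permutation p = 1e-05, adjusted p = 1.67e-05) and rho 0.950, the highest of the 5 (permutation p = 1e-05, adjusted p = 2.5e-05). Without S5 and H, r was 0.960, and within CETPtg and APPtg/CETPtg mice it was 0.940 and 0.860. The chains of type I collagen, Col1a1 and Col1a2, had r = 0.698 (permutation p = 0.00157, adjusted p = 0.00196) and rho = 0.650 (permutation p = 0.00759, adjusted p = 0.00949). Without S5 and H, r was 0.560, and it was 0.533 within CETPtg and 0.823 within APPtg/CETPtg mice. Over the 16 mice Col6a1 and Col6a2 had the lowest values, r = 0.581 (permutation p = 0.0172, adjusted p = 0.0172) and rho = 0.576 (permutation p = 0.0222, adjusted p = 0.0222), with r = 0.561 without A and B, 0.650 within CETPtg and 0.497 within APPtg/CETPtg mice. After the mean of each group was subtracted, r was 0.976 for Col8a1 and Col8a2, 0.921 for Col4a1 and Col4a2, 0.748 for Col1a1 and Col3a1 and 0.653 for Col6a1 and Col6a2, with rho between 0.571 and 0.953 (permutation adjusted p of at most 0.00859 for r and 0.0287 for rho). For Col1a1 and Col1a2, r was then 0.507 (permutation adjusted p = 0.0379) and rho 0.421 (permutation adjusted p = 0.106), so the rank correlation did not pass. These permutations shuffled all 16 mice and did not allow for the subtracted group means, so their p values are too small. They cannot decide whether the r of 0.507 passes. Without the 2 mice farthest from the median, r of these differences was 0.963 for the Col8 pair, 0.804 for Col4a1 and Col4a2, 0.578 for Col1a1 and Col3a1, 0.509 for Col6a1 and Col6a2 and 0.410 for Col1a1 and Col1a2.

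**Figure D4:**
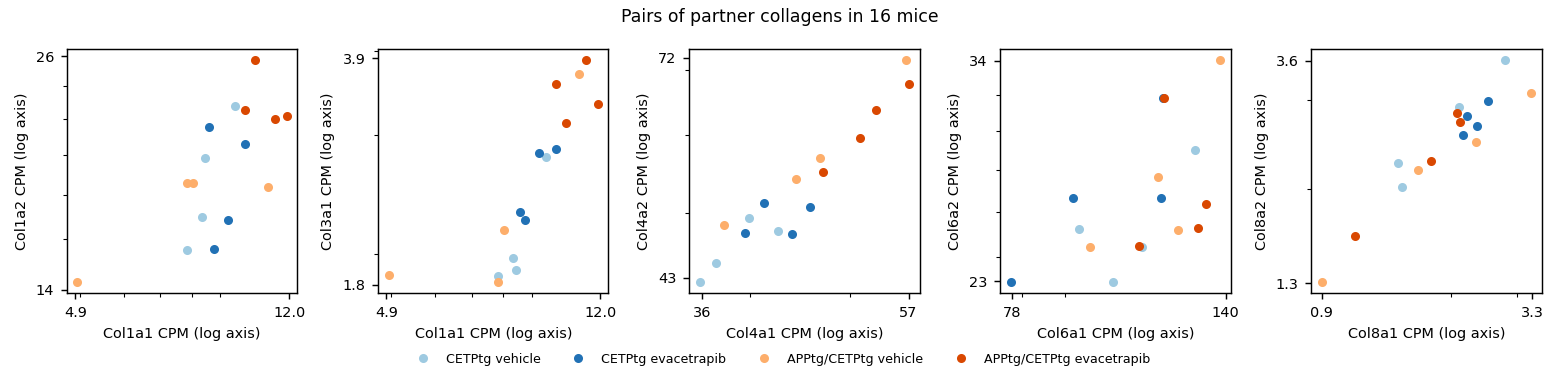
CPM of 5 pairs of collagens plotted against each other on log axes, with 1 point per mouse colored by group. Points of Col4a1 and Col4a2 lie close to a line (r = 0.951 on log2 CPM), whereas those of Col6a1 and Col6a2 scatter (r = 0.581).

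The main type IV genes are neighbors. In the GENCODE M21 annotation of GRCm38, Col4a1 (chr8:11198423-11312826, minus strand) and Col4a2 (chr8:11312805-11449287, plus strand) run head to head, and their first exons share 22 bases at chr8:11312805-11312826. This stretch is shown because both transcripts begin in it. It is given from RefSeq (build GRCm38.p6), 5′ to 3′ on the strand of Col4a2, with the GC box motif in capitals.
Col4a1 and Col4a2 start: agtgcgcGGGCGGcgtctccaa
Col6a1 (chr10:76708792-76726168) and Col6a2 (chr10:76595762-76623630) also neighbor each other, as do Col3a1 (chr1:45311538-45349706) and Col5a2 (chr1:45374321-45503282). Col1a1 lies on chromosome 11 and Col1a2 on chromosome 6.

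RefSeq promoter windows of GRCm38.p6, from 250 bases before to 50 bases after the start, were matched by symbol for 35 of the 44 collagens. The 250 bases before the start are printed for Col16a1, which was called between the genotypes, and for Col3a1, the fibrillar chain with the largest change with evacetrapib over both genotypes. The CCAAT box, the GC box (GGGCGG) and the TATA box (TATAAA) were searched on both strands, and matches are in capitals.
Col16a1, chr4:130047590-130047839, plus strand: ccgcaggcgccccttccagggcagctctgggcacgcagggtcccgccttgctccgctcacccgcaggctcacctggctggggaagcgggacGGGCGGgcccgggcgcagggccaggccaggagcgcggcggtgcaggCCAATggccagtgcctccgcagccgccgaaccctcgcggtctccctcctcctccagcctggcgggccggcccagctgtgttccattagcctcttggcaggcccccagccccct
Col3a1, chr1:45311288-45311537, plus strand: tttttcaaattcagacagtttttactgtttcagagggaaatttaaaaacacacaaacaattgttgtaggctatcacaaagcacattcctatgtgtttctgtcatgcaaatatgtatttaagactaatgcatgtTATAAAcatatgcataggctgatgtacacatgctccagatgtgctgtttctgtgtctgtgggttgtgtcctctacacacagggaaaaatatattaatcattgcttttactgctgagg
In Col16a1, CCAAT begins 113 and GGGCGG 159 bases before the start, and an exon of the antisense noncoding gene Gm12963 (chr4:130047662-130047774) lies in the window. In Col3a1, TATAAA begins 117 bases before the start, and no annotated exon lies in the window. Of 32851 promoters, 33.8% hold CCAAT in the same 250 bases, while 32.7% hold the GC box motif and 12.4% the TATA box motif.

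New collagen chains are hydroxylated, folded, trimmed and crosslinked by enzymes. Of 29 tested genes for prolyl and lysyl hydroxylases, chaperones, procollagen proteinases and lysyl oxidases, edgeR called 0 with evacetrapib over both genotypes, where 2 were higher and 2 lower at an unadjusted p below 0.05 (4.12% and 3.79% of all genes were), and DESeq2 called 0. For this list and those below, the share of all genes called in that comparison was 0.0107% with edgeR and 0.317% with DESeq2. Loxl1, an enzyme that crosslinks collagen and elastin, had a log2 fold change of 0.35 (SE 0.11, edgeR adjusted p = 0.398). Between the genotypes, edgeR called 4 of the 29, all higher in APPtg/CETPtg mice, where 17.7% of all genes were called and 9.35% called higher. DESeq2, which called 20% of all genes, called 3 of these 4 and Bmp1, a procollagen proteinase, but not P3h1. P4ha2, a prolyl hydroxylase subunit, rose by a log2 fold change of 0.23 (SE 0.051, edgeR adjusted p = 0.00451). P3h3 and Ppib, which act in the hydroxylation and folding of proline-rich chains, rose by 0.20 and 0.10 (edgeR adjusted p = 0.0343 and 0.0493), and P3h1, called by edgeR only, by 0.17 (adjusted p = 0.0471).

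Among 17 basement membrane partners such as laminins, nidogens and perlecan, edgeR called 0 with evacetrapib over both genotypes and DESeq2 0, while 4 were higher and 1 lower at an unadjusted p below 0.05 (4.12% and 3.79% of all genes were). Within APPtg/CETPtg mice 7 of the 17 were higher and 0 lower at that p (4.7% and 4.32% of all genes were). Of the other lists, 4 of 29 enzymes, 4 of 11 fibril partners, 3 of 9 receptors and 1 of 11 proteases and inhibitors were higher and 0 lower. Both tools called 0 of each list, where edgeR called 0.043% and DESeq2 0.392% of all genes. Within CETPtg mice 0 of any of these lists were higher at that p, where 3.06% of all genes were. There, 1 enzyme and 1 basement membrane partner were lower, where 2.74% of all genes were, and both tools called 0, where they called 0% of all genes. Lamc3 and Hspg2, a laminin chain and perlecan, had log2 fold changes of 0.30 and 0.26 over both genotypes (edgeR adjusted p = 0.356 and 0.450), and Sparc, a glycoprotein that binds collagen, one of -0.25 (adjusted p = 0.523). Between the genotypes edgeR and DESeq2 called 0 of these 17, where they called 17.7% and 20% of all genes. At an unadjusted p below 0.05, 2 were higher and 1 lower (15.8% and 14.7% of all genes were).

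Of 11 tested fibril partners, edgeR called 0 with evacetrapib over both genotypes and DESeq2 0, with 1 higher at an unadjusted p below 0.05, where 4.12% of all genes were, Fn1 (fibronectin) at a log2 fold change of 0.15 (edgeR adjusted p = 0.607). Between the genotypes, edgeR and DESeq2 called the same 3 of 11, beside 17.7% and 20% of all genes. Matn2 (matrilin 2) rose by 0.20, and Fn1 and Tnxb (tenascin X) fell in APPtg/CETPtg mice, by log2 fold changes of 0.26 and 0.43 (edgeR adjusted p = 0.00574, 0.0104 and 0.0191). Fn1 had between 68.1 and 85.7 CPM in CETPtg mice, between 47.5 and 65.8 CPM in vehicle-treated APPtg/CETPtg mice and 74.1, 70.4, 72.5 and 63.5 CPM in E to H. With evacetrapib, only H was thus below the CETPtg range, while all vehicle-treated APPtg/CETPtg mice were.

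Of 9 tested collagen receptors, edgeR called 0 in both comparisons, where it called 0.0107% of all genes with evacetrapib and 17.7% between the genotypes. With evacetrapib, 2 were higher at an unadjusted p below 0.05, where 4.12% of all genes were, the integrin chains Itga1 and Itgb1, with log2 fold changes of 0.27 and 0.10 (edgeR adjusted p = 0.496 and 0.565), and DESeq2 called 0. Between the genotypes 4 were lower at an unadjusted p below 0.05, where 14.7% of all genes were, and DESeq2 called 2, Ddr2 and Mrc2, beside 20% of all genes. Of 11 tested proteases and their inhibitors, edgeR called 0 with evacetrapib, with 1, Mmp14, higher at an unadjusted p below 0.05 (log2 fold change 0.26, adjusted p = 0.534), again beside 4.12% of all genes, and DESeq2 called 0. Between the genotypes both tools called the same 2 of 11, beside 17.7% and 20% of all genes. Timp3, an inhibitor bound to the matrix, and Mmp16, a membrane protease, fell in APPtg/CETPtg mice by log2 fold changes of 0.24 and 0.20 (edgeR adjusted p = 0.000837 and 0.00858).

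With evacetrapib over both genotypes, 9 of 12 endothelial, 5 of 10 pericyte and 3 of 7 smooth muscle markers were higher at an unadjusted p below 0.05, where 4.12% of all genes were, and 0 were lower, where 3.79% were. Only Myh11, the smooth muscle myosin, was called by edgeR (log2 fold change 0.56, adjusted p = 0.0193), and DESeq2 called 4, 1 and 3, where it called 0.317% of all genes. The endothelial list holds Pecam1, Cdh5, Flt1 and Kdr, and the smooth muscle list Acta2, Tagln and Myh11. The study had reported all of these as changed with evacetrapib in these mice, so the counts are not independent of that result. Endothelial markers, led by Flt1, summed to 246, 242, 238 and 282 CPM in S1 to S4, 319, 272, 296 and 278 CPM in A to D, 224, 243, 239.5 and 281 CPM in S5 to S8 and 286, 289.6, 330.0 and 311 CPM in E to H. The APPtg/CETPtg groups did not overlap, and in CETPtg mice only S4 lay within the evacetrapib range.

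Pericyte markers, led by Rgs5, summed to 206, 209.8, 206 and 230.0 CPM in S1 to S4, 223, 222, 229 and 239 CPM in A to D, 183, 174, 190.3 and 221 CPM in S5 to S8 and 229, 227, 250.5 and 247 CPM in E to H. Smooth muscle markers, led by Myl9, summed to 32.5, 32.2, 32.3 and 39.4 CPM in S1 to S4, 38.2, 50.5, 39.6 and 49.6 CPM in A to D, 32.1, 27.6, 32.5 and 38.9 CPM in S5 to S8 and 44.4, 42.7, 42.8 and 49.8 CPM in E to H. Here too the APPtg/CETPtg groups did not overlap for either sum. None of these markers was at 0 in all mice, and their part in the collagen values was not tested.

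Fibroblast and meningeal markers, chosen without collagens and led by Islr, summed to 137, 117, 143 and 119 CPM in S1 to S4, 108, 123, 109 and 140.0 CPM in A to D, 88.3, 110.1, 121 and 113 CPM in S5 to S8 and 146, 122, 137 and 115 CPM in E to H. S5, lowest of the 16 mice for Col1a1 and Col1a2, was lowest for this sum too, and the groups overlapped. Of the 13 markers, edgeR and DESeq2 called 0 with evacetrapib over both genotypes, where 0 had an unadjusted p below 0.05. In APPtg/CETPtg mice alone, both tools also called 0, with 3 higher at an unadjusted p below 0.05, where 4.7% of all genes were. The median log2 fold change of the 13 with evacetrapib was 0.10 over both genotypes, -0.05 in CETPtg mice and 0.29 in APPtg/CETPtg mice. For the difference between these effects it was 0.38. None of the 13 was at 0 in all mice, and their part in the collagen values was not tested.

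Between the genotypes, where edgeR called 17.7% of all genes, it called 1 of 12 endothelial markers higher and 1 lower, and 1 of 10 pericyte markers higher and 1 lower. DESeq2, which called 20% of all genes, called 2 endothelial markers higher and 1 lower, and 1 pericyte marker higher and 2 lower. Of neuronal, astrocyte and microglial markers, 8, 7 and 7 in number, edgeR called 1, 1 and 3 higher and 0, 2 and 0 lower, and DESeq2 1, 1 and 3 higher and 1, 3 and 0 lower. Of 7 oligodendrocyte and 6 precursor markers, edgeR called 3 and 1 lower and DESeq2 4 and 1. None of the fibroblast or smooth muscle markers was called by edgeR or DESeq2, with 2 lower and 0 at an unadjusted p below 0.05, where 14.7% of all genes were lower. The part of these cells in the values of Col4a1, Col4a2 and Col16a1 was not tested.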

How the data were processed

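Per the labels and the study's methods, the authors trimmed read pairs with Trimmomatic 0.39, aligned them to mm10 with STAR 2.7.8a and counted them with HTSeq, and deposited raw counts per gene. The annotation and strand setting of the counting are not given in the sources used here, and 13 collagens share exon bases with another gene (Col3a1 141 with Gm47302, for example), whose reads may be misassigned. Here, counts were scaled by TMM and tested with edgeR 4.0.16 in R 4.3.3 (a gene needed 10 counts in 4 or more mice, and log2 CPM used a prior count of 2), with terms for treatment and genotype or a mean per group. DESeq2 1.42.0, other filters, scalings and left-out mice were alternatives, and a term for replicate numbers, thinned counts and leaving out the 4 mice rich in choroid plexus RNA were added after the data were seen. TPM used the bases in all exons annotated for a gene in GENCODE M21, which holds 55227 of the identifiers. These can exceed the length of its main transcript. The steps were tested on simulated counts. Replicates are separate mice, and counts of same-group mice differed beyond sampling noise. The members and lists were chosen with earlier results of these data known. Named collagens are the 2 with the highest TPM per class, Col1a1, Col1a2, Col3a1, Col4a1, Col4a2, Col25a1 and those with the smallest p. Others were named after their values were seen.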

Additional observations from a re-analysis of the deposited data

Results flagged for a closer look

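In 17 of 176 sets of 4 mice (44 collagens in 4 groups), 1 mouse lay far from the other 3 of its group, where chance gives about 1 in 20. In vehicle-treated APPtg/CETPtg mice these were S6 for Col10a1 (0.946 CPM) and Col27a1 (13.0 CPM), S5 for Col1a2 (14.3 CPM), and S8 for Col15a1 (6.70 CPM) and Col6a4 (4.19 CPM). With evacetrapib, APPtg/CETPtg mice that stood apart were G for Col11a2 (30.0 CPM), E for Col1a2 (25.7 CPM), and H for Col15a1 (7.01 CPM) and Col6a3 (8.63 CPM). Among vehicle-treated CETPtg mice they were S1 for Col15a1 (4.74 CPM), S3 for Col3a1 (2.79 CPM), and S4 for Col4a4 (0.564 CPM) and Col9a2 (5.78 CPM). Among evacetrapib-treated CETPtg mice they were A for Col14a1 (1.83 CPM), C for Col5a1 (25.2 CPM), and D for Col23a1 (13.8 CPM) and Col7a1 (4.48 CPM). Col15a1, a chain of vessel and muscle basement membranes, had such a mouse in 3 of 4 groups.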

How the results depend on the processing

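A count was taken as kept where it was within 1.5 times the first fit's, a class median where it moved by less than the spread between mice, and a named gene where its direction and side of the threshold stayed. Apart from the fits without 1 mouse, this held for 47 of 49 counts of called collagens, 33 of 39 counts at an unadjusted p below 0.05, 44 of 45 class medians and 128 of 135 values of named genes. The first count of called collagens was 0 in every comparison except that between the genotypes, so most of these checks set 0 against 0. A kept count need not stand for the same genes. In all 5 correlations, Pearson's r kept its sign and a permutation adjusted p below 0.05 after group means were subtracted. That p is too small, since the permutations did not allow for the subtracted means. It cannot decide for Col1a1 and Col1a2, at r = 0.507 (permutation adjusted p = 0.0379). The rank correlation of Col1a1 and Col1a2 then no longer passed (rho 0.421, permutation adjusted p = 0.106). DESeq2 called 1 collagen with evacetrapib in APPtg/CETPtg mice (edgeR 0), and so did edgeR without a filter on low counts, which also gave 13 at an unadjusted p below 0.05 (7 otherwise). In CETPtg mice this count was 1 with DESeq2, with a term for the replicate numbers and with counts thinned to the smallest total (2 otherwise). With at least 10 counts in every mouse, the type IV median between the genotypes was 0.12 (-0.04 otherwise), since fewer type IV chains remained. After thinning, the log2 fold change with evacetrapib was 0.0114 for Col11a2 and 0.00120 for Col5a1, both negative in the first fit. Without the 4 mice with most choroid plexus RNA, Col5a1 was at 0.0519, 7 collagens had an unadjusted p below 0.05 with evacetrapib over both genotypes (4 otherwise) and 3 in the difference between genotypes (8 otherwise). Col16a1 was no longer called between the genotypes with the term for replicate numbers (0.26, adjusted p = 0.0556) or without those 4 mice (0.28, adjusted p = 0.103). Apart from the median, the cause was not tested.

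In the 16 fits that each left out 1 mouse, the log2 fold change with evacetrapib over both genotypes ran from -0.0704 to 0.00852 for Col11a2, from -0.0915 to 0.0404 for Col5a1 and from -0.0713 to 0.0267 for Col6a1. Counts of calls ran from 0 to 1 in APPtg/CETPtg mice, with 1 only without H. Counts at an unadjusted p below 0.05 ran from 0 to 3 in CETPtg mice, from 6 to 11 in APPtg/CETPtg mice, from 5 to 14 for the difference between genotypes and from 3 to 9 between the genotypes. The type IV median ran from 0.0886 to 0.244 in APPtg/CETPtg mice and from 0.0653 to 0.309 in the difference between genotypes, and that of the chains outside the fibrillar and type IV classes from 0.0214 to 0.187 in the latter.

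Replicate numbers in the file header gave no sign of marking pairs, as the 24 same-number pairs had correlations from -0.203 to 0.173. Such a check cannot exclude weak pairing. Depth differed most within vehicle-treated APPtg/CETPtg mice, and a collagen near 0.1 CPM has only a few counts in the smallest libraries.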
